A study of Mus musculus with 9 samples.

Results

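The genes described are 10 sensors and effectors of the inflammasome, chosen by their role, with earlier results of these data known. They are the sensors Nlrp3, Nlrp1b, Nlrc4, Aim2, Naip2 and Naip5, the adaptor Pycard, the proteases Casp1 and Casp4, and the pore former Gsdmd. All 10 were found by symbol among the 55655 rows of each deposited table. Their expression was measured by RNA-seq in macrophages grown from the bone marrow of wild type C57BL/6 mice aged 6 to 8 weeks, with 3 libraries in each of 3 groups. All 9 cultures were differentiated for 7 days with 10 ng/mL M-CSF, the growth factor that turns marrow precursors into macrophages. M0 cells received nothing further. M1 cells were polarized with LPS, a bacterial cell wall component, and IFN-γ, and were sampled at 12 hours. M1 + PBM cells were polarized in the same way while being irradiated with laser light (photobiomodulation, PBM). The M1 cells were kept in the dark box without light. The labels do not say whether the cultures of a group came from separate mice, so p-values measure only the spread between these libraries, which may be technical.

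An inflammasome is a cytosolic complex in which a sensor that has met its trigger gathers the adaptor ASC, the product of Pycard, and activates caspase-1. Caspase-1 cleaves the precursors of IL-1β and IL-18 and opens gasdermin D, whose released part forms pores in the plasma membrane and ends in a lytic cell death called pyroptosis. In macrophages the pathway is known to work in a pair of steps, a priming step in which LPS or cytokines raise the transcripts of several components, and a trigger that assembles the complex. Transcript levels bear on the first of these steps.

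Expression is given in FPKM, fragments scaled to transcript length and library depth, so that levels of different genes can be compared per length. The M0 libraries were deposited in a table apart from the other 6, and whether the tables were scaled together is not given in the sources used here. The labels of the M1 and M1 + PBM libraries carry a shared string that the M0 labels lack, and do not say what it stands for. A difference in handling, if there was one, cannot be told apart from the step from M0 to M1. That step is therefore described without a test. M1 + PBM was compared with M1 inside one table by limma on log2(FPKM + 1), a scale that understates the change of genes with low FPKM, over the 12238 rows that reached an FPKM of 1 in 3 or more of these 6. All 10 members passed this minimum. Estimated depth was between 30930000 and 42150000 fragments a library. The 8 macrophage markers were all at 1 FPKM or more in all 9 libraries, and the dendritic cell (6 genes), lymphoid (7) and erythroid (6) marker sums reached at most 1.23, 0.520 and 1.04 FPKM, with no gene of these lists at 1 FPKM. In bulk RNA, fewer cells of a kind and less transcript per cell cannot be told apart.

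M0 replicate 3 stood apart from the other M0 libraries. Its root-mean-square log2 difference from M0 replicates 1 and 2 was 0.51 and 0.61, against 0.39 between those replicates. Its 6 stromal markers summed to 187 FPKM, against 6.91 and 5.57, and its 5 M1 polarization markers to 23.0 FPKM, against 1.23 and 1.10. Differences and ratios of the members between M1 and M0 are given with and without this library.

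**Figure D1:**
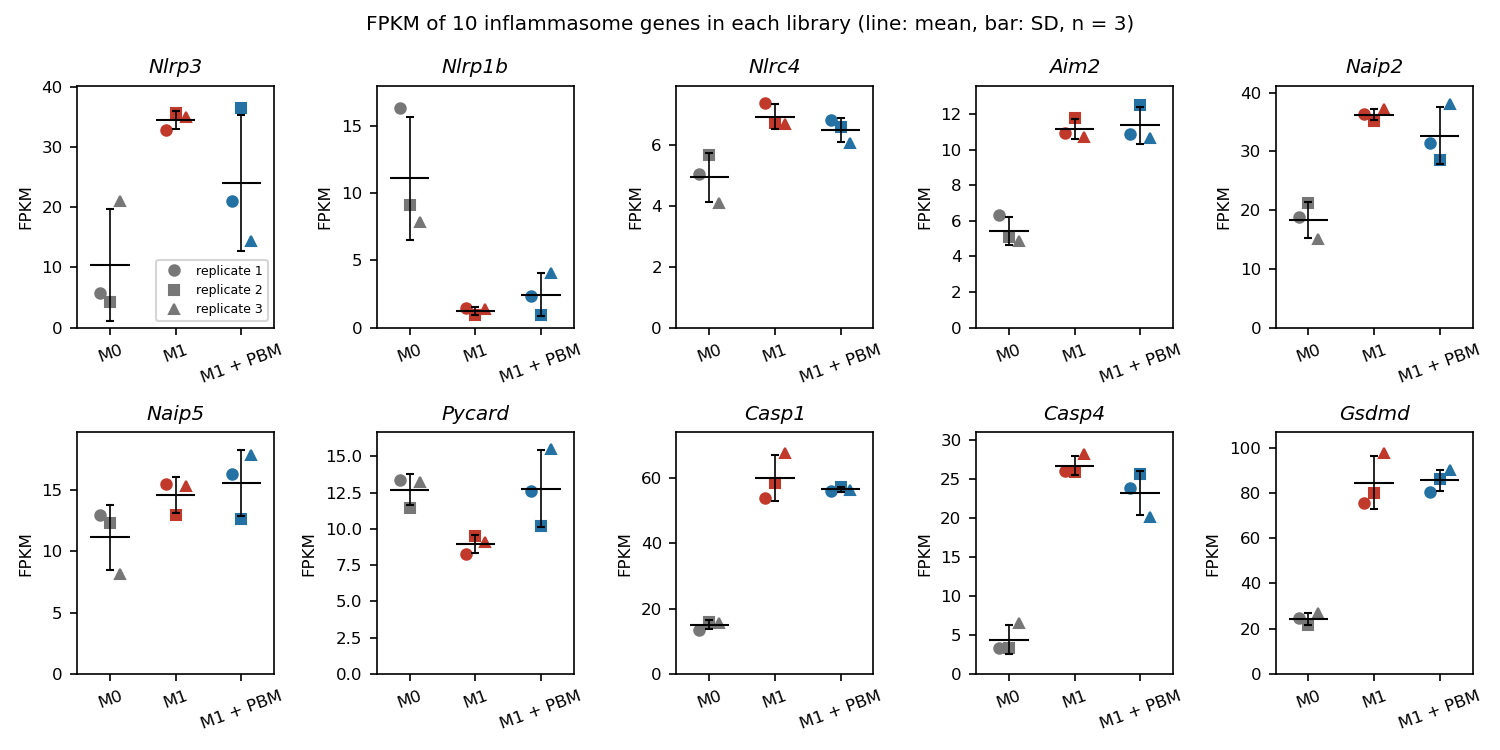
FPKM (y axis of each panel, linear and starting at 0) of the 10 inflammasome genes in the M0, M1 and M1 + PBM libraries. Points are libraries (circle, square and triangle for replicates 1, 2 and 3), horizontal lines are group means and vertical bars are the SD (n = 3). Nlrp3, Casp1, Casp4 and Gsdmd sit higher in M1 than in M0 with no overlap, Nlrp1b sits lower, and Nlrp3 spreads from 14.4 to 36.4 FPKM in M1 + PBM.

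Between M0 and M1 macrophages the members moved in both directions. Transcripts of 4 genes, the sensor Nlrp3, both caspases and Gsdmd, were higher in M1 with no overlap between the libraries and a log2(FPKM + 1) difference of at least 1. Nlrp1b was lower by the same rule, and the other 5 members did not meet it. The 4 higher members made up 4 of the 10, where 7.78% of the 13593 rows considered met the rule upward, 14.0% met it downward and 21.8% in either direction. Without M0 replicate 3 the same 5 members met the rule, and the shares over all rows were 9.61% upward, 11.9% downward and 21.6% in either direction. Scaling the libraries by median of ratios changed the background: the median difference of all rows moved from -0.35 to -0.01, and rows higher in M1 went from 35.7% to 58.9% of the rows that met the rule. With that scaling 11.2% of all rows met the rule upward and 7.81% downward, and 7 members met it, Aim2 and Naip2 in addition. The count of members was 6 without M0 replicate 1, with Aim2 at 1.02, and 6 without M0 replicate 2, with Naip2 at 1.06. Shares of all rows are not given for these fits, so a change of the members and a shift of the background cannot be told apart.

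Nlrp3 encodes the sensor that responds to potassium efflux and other signs of membrane or organelle damage. Its FPKM was 5.69, 4.29 and 21.1 in M0 replicates 1 to 3 and 32.9, 35.6 and 34.9 in the M1 libraries. The M1 libraries lay close together and above every M0 library, and the M0 library nearest to them was replicate 3. The mean rose from 10.4 ± 9.31 to 34.5 ± 1.44 FPKM (SD, n = 3), a ratio of 3.33 and a log2 difference of 1.94. Without M0 replicate 3 the ratio was 6.91 and the log2 difference 2.57. The same library held 25.1 FPKM of Il1b, against 0.285 and 0.244 in M0 replicates 1 and 2. The part of its stromal and M1 marker transcripts in these values was not tested.

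Nlrp1b encodes a sensor that is activated when its amino-terminal part is cleaved. It was the only member of the 10 that met the rule downward. Its FPKM was 16.3, 9.09 and 7.84 in M0 and 1.44, 0.907 and 1.34 in M1. All M0 libraries were above all M1 libraries, with means of 11.1 ± 4.59 and 1.23 ± 0.283 FPKM (SD, n = 3). M0 exceeded M1 by a ratio of 9.02, and the log2 difference was -2.38, or -2.58 without M0 replicate 3. With a pseudocount of 0.1 in place of 1 it was -3.02.

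The remaining sensors differed less. Aim2, the sensor of double-stranded DNA in the cytosol, was at 6.34, 5.09 and 4.88 FPKM in M0 and at 10.9, 11.8 and 10.7 in M1. Its libraries did not overlap, with a ratio of means of 2.05 and a log2 difference of 0.92, short of the threshold of 1, and of 1.95 and 0.86 without M0 replicate 3. Naip2, which binds a rod protein of bacterial secretion systems and hands the signal to Nlrc4, was at 18.8, 21.2 and 15.1 FPKM in M0 and at 36.4, 35.2 and 37.1 in M1. The ratio of means was 1.97 with no overlap, a log2 difference of 0.96, and without M0 replicate 3 these were 1.81 and 0.83. Nlrc4, the partner that assembles on Naip proteins, went from 5.06, 5.70 and 4.10 to 7.41, 6.75 and 6.69 FPKM. These groups were also apart, at a log2 difference of 0.43, or 0.32 without M0 replicate 3. Naip5, the receptor for flagellin, was at 13.0, 12.3 and 8.11 FPKM in M0 and at 15.5, 12.9 and 15.3 in M1. Its groups overlapped, and the difference of 0.38 became 0.19 without M0 replicate 3 and 0.80, with the groups apart, under median-of-ratios scaling. Of the stretches of 100 bases in its annotated transcripts, 16.2% also occur in transcripts of other genes, chiefly Naip3 and Naip6, and for Naip2 this share was 4.44%. How the authors' counting divided such fragments is not given in the sources used here, so the levels of Naip2 and Naip5 are uncertain. The share was 0.0477% for Nlrp1b and 0 for the other 7 members.

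Pycard, the adaptor that links sensors to caspase-1, was the other member with a lower mean in M1. Its FPKM was 13.4, 11.5 and 13.3 in M0 and 8.29, 9.55 and 9.09 in M1. Every M1 library was below every M0 library, at a log2 difference of -0.46, or -0.43 without M0 replicate 3. The median of all rows was itself at -0.35, and with median-of-ratios scaling the Pycard difference was -0.05 with the groups overlapping. Every member kept the sign of its difference under both scalings, Pycard only narrowly.

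Both caspases were higher in M1. Casp1, the protease that cleaves the IL-1β and IL-18 precursors, was at 13.5, 16.1 and 15.7 FPKM in M0 and at 53.9, 58.5 and 67.7 in M1. The lowest M1 library exceeded the highest M0 library, with a ratio of means of 3.98 and a log2 difference of 1.92, or 4.06 and 1.95 without M0 replicate 3. Casp4, which encodes the mouse protease widely called caspase-11 that binds LPS in the cytosol and cleaves gasdermin D without a sensor, was at 3.33, 3.35 and 6.58 FPKM in M0 and at 26.1, 25.9 and 28.2 in M1. It had the largest upward log2 difference of the 10 members, 2.41, and 97.3% of all rows had a smaller one. Its ratio of means was 6.05, or 8.01 without M0 replicate 3, the M0 library in which it was highest. Gsdmd, whose product forms the pore, was the most abundant member in all 3 groups. Its FPKM was 24.6, 21.5 and 27.0 in M0 and 75.7, 79.9 and 97.8 in M1, again without overlap. The ratio of means was 3.47 and the log2 difference 1.75, or 3.67 and 1.83 without M0 replicate 3.

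**Figure D2:**
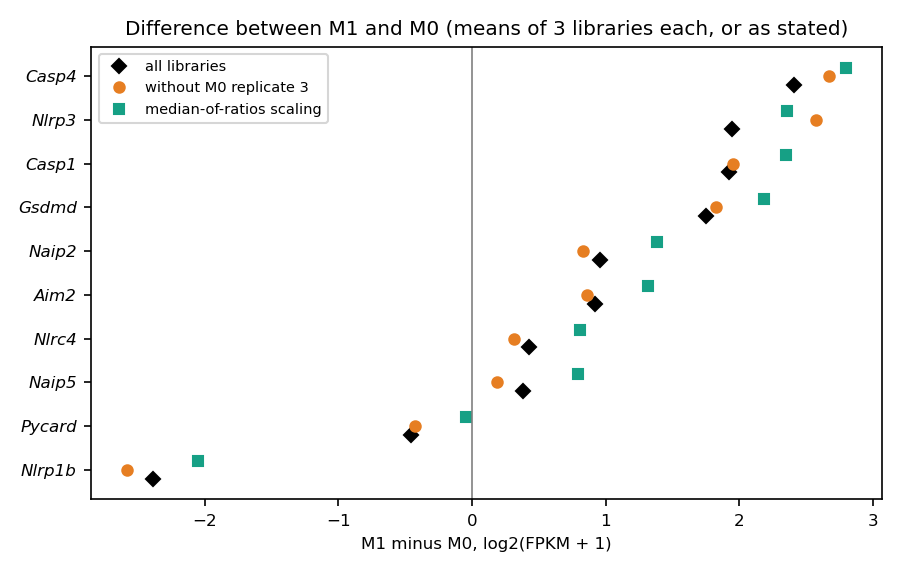
Difference of mean log2(FPKM + 1) between M1 and M0 (x axis, positive where M1 is higher) for each member (y axis). Diamonds use all 6 libraries, circles leave out M0 replicate 3 and squares use median-of-ratios scaling. Casp4, Nlrp3, Casp1 and Gsdmd lie above 1 and Nlrp1b below -2 in all 3, while Pycard moves from -0.46 to -0.05 with the scaling.

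The stretches of 250 bases before annotated transcript starts were taken from RefSeq (GRCm38.p6) for the members with an entry. There were 12 such windows for 9 of the 10 members, all but Gsdmd. They were searched on both strands for the interferon-stimulated response element core (GAAANNGAA), the gamma-activated site (TTCNNNGAA), which are motifs of interferon-induced transcription, and the NF-κB consensus, the motif of the factor that LPS activates. Neither interferon motif occurred in any of the 12 windows, where 7.13% and 7.02% of all 32851 windows held one. The NF-κB consensus, held by 7.25% of all windows, occurred in both windows of Casp4, in 1 of the 2 windows of Nlrp3 and in that of Naip5. The Casp4 windows share 239 of their 250 bases and hold the same matches. Windows of Casp4 and Nlrp3 are shown because these members had the largest upward log2 differences, with Casp1, close to them in its difference, as a window without a match. Capitals mark matches to the NF-κB consensus. In Casp4 the first run of capitals holds a pair of matches on the plus strand that overlap by 9 bases, from -93 to -83 before the start, and the second holds 1 match on the minus strand, from -39 to -30. In Nlrp3 the match runs from -186 to -177. A match of letters is not evidence of binding.
Casp4, chr9:5308599-5308848, plus strand: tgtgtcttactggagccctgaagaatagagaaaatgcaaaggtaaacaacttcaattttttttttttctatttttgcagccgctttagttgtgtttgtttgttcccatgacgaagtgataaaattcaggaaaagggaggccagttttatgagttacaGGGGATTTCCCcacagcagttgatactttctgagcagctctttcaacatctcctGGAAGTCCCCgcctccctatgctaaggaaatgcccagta
Nlrp3, chr11:59541319-59541568, plus strand: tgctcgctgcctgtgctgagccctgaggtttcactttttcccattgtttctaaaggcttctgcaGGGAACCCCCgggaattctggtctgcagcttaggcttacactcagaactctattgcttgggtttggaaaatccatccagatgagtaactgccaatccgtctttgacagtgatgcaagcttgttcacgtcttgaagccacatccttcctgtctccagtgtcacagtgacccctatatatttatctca
Casp1, chr9:5298267-5298516, plus strand: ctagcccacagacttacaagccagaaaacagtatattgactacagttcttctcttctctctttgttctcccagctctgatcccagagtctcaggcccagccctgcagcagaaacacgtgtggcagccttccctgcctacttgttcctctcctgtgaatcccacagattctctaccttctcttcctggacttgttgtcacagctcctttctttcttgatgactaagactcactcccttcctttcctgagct

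The comparison of M1 + PBM with M1 asks whether light during polarization changed these transcripts. Of the 10 members, Pycard passed an unadjusted p of 0.05, with a higher mean in M1 + PBM, and the other 9 did not pass. No member passed with a log2 fold change of at least 1 as well, and none had an adjusted p under 0.05. Over all 12238 rows 4.44% passed the unadjusted p (2.99% higher and 1.45% lower), 0.261% passed with the fold (0.0245% higher and 0.237% lower), and 0.00817%, a single row, had an adjusted p under 0.05 (limma, Benjamini-Hochberg). When a library was left out, the count of members past the unadjusted p was 0 without M1 replicate 1, M1 replicate 3, M1 + PBM replicate 1 or M1 + PBM replicate 3, and 3 (Nlrp3, Nlrp1b and Pycard) without M1 + PBM replicate 2. The shares of all rows in these 5 fits were 2.60%, 4.29%, 2.10%, 2.73% and 7.72%. The split of the rows that passed depended on the scaling, with 67.4% of them higher in M1 + PBM as deposited and 45.3% after median-of-ratios scaling. Libraries did not overlap for Pycard, higher with PBM, and for Casp4, lower with PBM, where 8.51% and 2.52% of all rows were apart in these directions. The median log2 fold change of the members was -0.03, and that of all rows 0.06.

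The adaptor Pycard was at 8.29, 9.55 and 9.09 FPKM in M1 and at 12.6, 10.2 and 15.5 in M1 + PBM. All irradiated libraries were above all M1 libraries, replicate 2 by the least. The means were 8.97 ± 0.636 and 12.8 ± 2.65 FPKM (SD, n = 3), and the log2 fold change was 0.45 (standard error, SE, 0.16), with a 95% interval from 0.07 to 0.82 (limma, unadjusted p = 0.0256, adjusted p = 0.90). The exact permutation test of 3 libraries against 3 gave its smallest possible p of 0.1. Within replicate numbers the log2 differences were 0.55, 0.09 and 0.71. The call was lost in 4 of 6 fits that left out a library, at 0.40 without M1 replicate 1 (limma, unadjusted p = 0.0814), 0.46 without M1 replicate 3 (unadjusted p = 0.0506), 0.45 without M1 + PBM replicate 1 (unadjusted p = 0.0641) and 0.31 without M1 + PBM replicate 3 (unadjusted p = 0.0627). The sum of the 6 stromal markers was ordered like Pycard across the irradiated libraries. It was 14.2, 13.1 and 15.1 FPKM in M1 and 22.9, 6.59 and 27.8 in M1 + PBM, with none of the genes at 0 in any library. Col1a1, Col1a2, Col3a1, Dcn and Cdh5 had this order. Pdgfrb did not, and was highest in irradiated replicate 2, at 1.71, 2.99 and 1.95 FPKM. Group means went both ways. From M1 to M1 + PBM they were higher for Col1a1 (6.10 to 9.93 FPKM), Col1a2 (2.75 to 4.60) and Col3a1 (0.444 to 0.945). They were lower for Dcn (1.06 to 0.896), Pdgfrb (3.18 to 2.22) and Cdh5 (0.617 to 0.489). The part of the stromal genes in the Pycard difference was not tested.

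Nlrp3 was at 32.9, 35.6 and 34.9 FPKM in M1 and at 21.0, 36.4 and 14.4 in M1 + PBM. The irradiated libraries disagreed among themselves: replicates 1 and 3 were below every M1 library and replicate 2 was above them. Its SD of log2 values was 0.06 in M1 and 0.65 in M1 + PBM. The log2 fold change was -0.61 (SE 0.31), with a 95% interval from -1.34 to 0.13 (limma, unadjusted p = 0.0914, adjusted p = 0.90). Within replicate numbers the differences were -0.62, 0.03 and -1.22. When M1 + PBM replicate 2 was left out the fold change was -0.95 (limma, unadjusted p = 0.00216), and without M1 + PBM replicate 3 it was -0.31 (unadjusted p = 0.245).

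Nlrp1b was at 1.44, 0.907 and 1.34 FPKM in M1 and at 2.35, 0.905 and 4.09 in M1 + PBM. Here too irradiated replicates 1 and 3 lay outside the M1 range, in this gene above it, and replicate 2 lay at its lower edge. The log2 fold change was 0.52 with a 95% interval from -0.30 to 1.35 (limma, unadjusted p = 0.174). It was 0.90 without M1 + PBM replicate 2 (limma, unadjusted p = 0.00729) and 0.19 without M1 + PBM replicate 3 (unadjusted p = 0.509). Its level rested on the fewest fragments of the 10 members, with an upper estimate of 143 in the lowest of the 9 libraries.

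Casp4 was at 26.1, 25.9 and 28.2 FPKM in M1 and at 23.9, 25.7 and 20.2 in M1 + PBM. The groups were apart, although M1 + PBM replicate 2 lay just under the lowest M1 library. The log2 fold change was -0.20 with a 95% interval from -0.48 to 0.08 (limma, unadjusted p = 0.132), and the exact permutation p was again 0.1. Casp1 was at 53.9, 58.5 and 67.7 FPKM in M1 and at 56.0, 57.3 and 56.3 in M1 + PBM. Its irradiated libraries fell inside the M1 range, at a log2 fold change of -0.08 with a 95% interval from -0.35 to 0.19. Gsdmd was at 75.7, 79.9 and 97.8 FPKM in M1 and at 80.5, 86.0 and 90.1 in M1 + PBM. It too stayed inside the M1 range, at 0.03 with a 95% interval from -0.28 to 0.33.

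Among the other sensors, Aim2 was at 10.9, 12.5 and 10.6 FPKM in M1 + PBM, around its 10.7 to 11.8 in M1. The 95% interval of its log2 fold change ran from -0.22 to 0.26. Nlrc4 was at 6.84, 6.60 and 6.07 FPKM with PBM, lower than the M1 library of the same number in 3 of 3, where 10.1% of all rows were lower in 3 of 3. Its groups overlapped, and the interval ran from -0.31 to 0.14. Naip2 was at 31.4, 28.6 and 38.0 FPKM, with replicate 3 above and the others below the M1 range, and its interval ran from -0.46 to 0.15. Naip5 was at 16.3, 12.6 and 17.8 FPKM, overlapping M1, with an interval from -0.28 to 0.44. The intervals of 8 members left out a log2 fold change of 1 or more in size, and those of Nlrp3 and Nlrp1b did not.

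**Figure D3:**
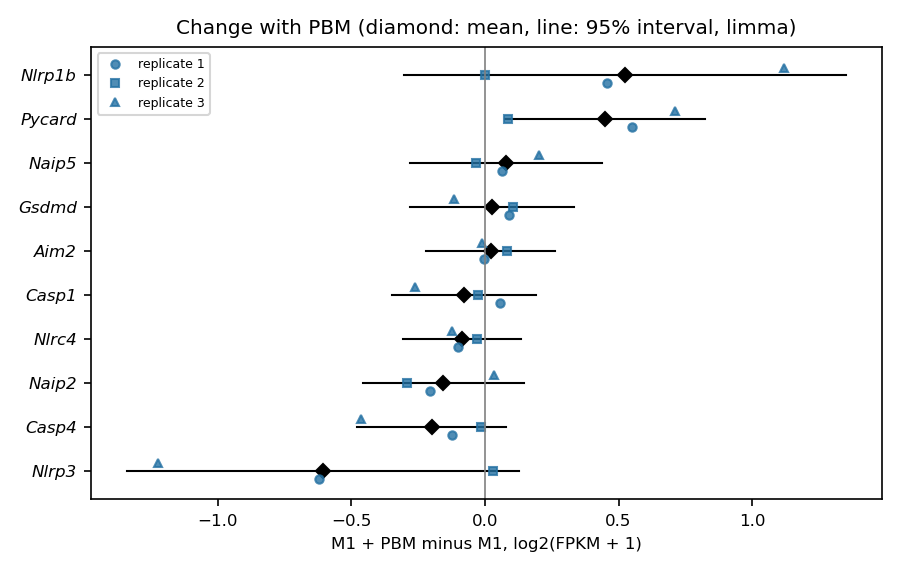
Difference in log2(FPKM + 1) between M1 + PBM and M1 (x axis, positive where PBM is higher) for each member (y axis). Diamonds are mean log2 fold changes with their 95% interval from limma (lines), and blue points are the differences within replicates 1, 2 and 3. The interval of Pycard lies above 0 and the other 9 include 0, and replicate 2 lies near 0 for Nlrp1b, Pycard and Nlrp3 where replicates 1 and 3 do not.

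Other genes of the pathway were taken from lists of 69 genes, of which 67 were found and 56 passed the FPKM minimum. The lists were drawn up with earlier results of these data known, so the share that passed is not independent evidence. With PBM, 2 of the 56 passed the unadjusted p upward and 6 downward, 14.3% of those tested beside 4.44% of all rows, and 48 did not pass (limma; every adjusted p was 0.90 or higher). Their median log2 fold change was -0.03. With the replicate number as a block 13 passed, 3 higher and 10 lower, while the share of all rows that passed went from 4.44% to 8.07%. When M1 + PBM replicate 1 or M1 + PBM replicate 3 was left out, 4 of the 56 passed, namely Ifngr1, Il1a, Il1b and Rela, which passed in all 6 fits that left out a library. The share of all rows that passed was 2.10% and 2.73% in these fits. Without M1 + PBM replicate 2 the count was 12, beside 7.72% of all rows.

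Il1a and Il1b, cytokines that leave the cell when pores open, had the largest changes of the 56 genes. Il1a was also among the genes the study picked from these libraries, so its direction is not independent evidence. Il1b, the precursor of IL-1β, was at 826, 1077 and 844 FPKM in M1 and at 409, 629 and 316 in M1 + PBM. All irradiated libraries were below all M1 libraries, at a log2 fold change of -1.07 (SE 0.26, limma, unadjusted p = 0.00584, adjusted p = 0.90). Il1a, a related cytokine that is active without caspase-1, was at 583, 680 and 354 FPKM in M1 and at 196, 235 and 81.0 in M1 + PBM. It fell by 1.74 on the log2 scale, again without overlap (SE 0.44, unadjusted p = 0.00659, adjusted p = 0.90, limma). Il18, the other substrate of caspase-1, was at 13.5, 16.5 and 15.8 FPKM in M1 and at 13.8, 14.5 and 10.3 in M1 + PBM. Those groups overlapped, at -0.24 (SE 0.15, limma, unadjusted p = 0.158). Thus 2 of the 6 tested genes of the list of substrates and antagonists passed, both lower.

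In the priming and transcription list 1 of 15 genes passed the unadjusted p upward and 2 downward. Ifngr1, a chain of the IFN-γ receptor, was at 8.73, 7.42 and 7.57 FPKM in M1 and at 12.4, 10.8 and 13.9 in M1 + PBM. It was higher in each irradiated library, at 0.58 (SE 0.12, limma, unadjusted p = 0.00257, adjusted p = 0.90). Rela, which encodes the p65 subunit of NF-κB, was at 29.3, 37.0 and 33.7 FPKM in M1 and at 26.7, 24.0 and 22.5 in M1 + PBM. It was lower without overlap, at -0.43 (SE 0.12, limma, unadjusted p = 0.0113, adjusted p = 0.90). Ly96, the LPS-binding partner of the receptor Tlr4, was lower at -0.27 (limma, unadjusted p = 0.0418). Its call was lost when any library but M1 replicate 3 was left out, with values from -0.31 to -0.23. The interferon-regulated factors Irf1, Irf2 and Irf8 did not pass, at -0.10, 0.13 and 0.09. Irf1 was at -0.38 without M1 replicate 3 (limma, unadjusted p = 0.0417).

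Of the 9 other sensors tested, Nod2, a receptor for bacterial cell wall fragments, passed downward at -0.36 (limma, unadjusted p = 0.0368), and kept the call only without M1 + PBM replicate 2, with values from -0.39 to -0.28 when any other library was left out. Nlrp1a, a close relative of Nlrp1b, was at 2.27, 1.93 and 2.29 FPKM in M1 and at 3.66, 1.99 and 4.07 in M1 + PBM. As in Nlrp1b, replicates 1 and 3 lay above the M1 range, while replicate 2 lay inside it, at a log2 fold change of 0.39 (limma, unadjusted p = 0.106, and unadjusted p = 0.0463 with the replicate block). Without M1 + PBM replicate 2 it was 0.62 (limma, unadjusted p = 0.00214). Mefv, which encodes pyrin, and Naip6 did not pass, at -0.10 and 0.12, and Naip1 was under the FPKM minimum. Among 11 genes of licensing and release, P2rx7, the ATP-gated channel that triggers potassium efflux, passed upward. It was at 6.80, 5.14 and 5.20 FPKM in M1 and at 10.8, 6.40 and 10.2 in M1 + PBM, where replicate 2 overlapped M1. Its log2 fold change was 0.57 (SE 0.20, limma, unadjusted p = 0.0290, adjusted p = 0.90), and the call was lost without M1 replicate 2, M1 replicate 3, M1 + PBM replicate 1 or M1 + PBM replicate 3, with values from 0.45 to 0.52. Nek7, a kinase that binds Nlrp3, Txnip and the guanylate-binding proteins Gbp2 and Gbp5 did not pass, at 0.04, 0.01, -0.06 and -0.31. Gbp5 was at -0.61 without M1 + PBM replicate 2 (limma, unadjusted p = 0.0441) and at -0.02 without M1 + PBM replicate 3.

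Among 7 genes of restraint, Tnfaip3, which encodes the NF-κB inhibitor A20, was lower without overlap at -0.63 (SE 0.21, limma, unadjusted p = 0.0231). Its call was lost without M1 replicate 3, M1 + PBM replicate 1 or M1 + PBM replicate 3, at -0.50, -0.50 and -0.56. None of the 8 tested genes of the list of other caspases and cell death passed an unadjusted p of 0.05 (limma), with Casp8 at -0.10 and Ninj1, whose product ruptures the membrane of dying cells, at -0.19. Ninj1 was at -0.42 without M1 replicate 3 (limma, unadjusted p = 0.00724). The gasdermin Gsdme was under the FPKM minimum.

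**Figure D4:**
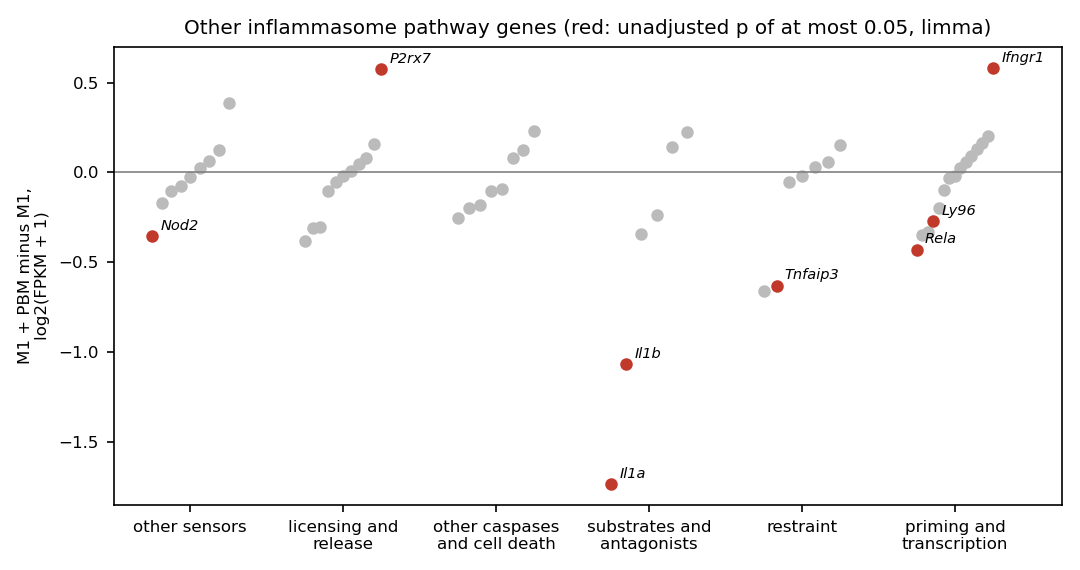
Log2(FPKM + 1) fold change of M1 + PBM against M1 (y axis) for the 56 other pathway genes tested, arranged by list (x axis) and by size within a list. Each point is a gene, red with its name where the unadjusted p was 0.05 or less (limma). The 8 red points are Il1a and Il1b at the bottom, Tnfaip3, Rela, Nod2 and Ly96 below 0, and P2rx7 and Ifngr1 above 0.

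Against M0, 26 of the 58 pathway genes considered were higher in M1 by the rule above and 3 were lower, and 29 did not meet it. Without M0 replicate 3 these were 28 higher and 6 lower of 56, and with median-of-ratios scaling they were 33 higher and 2 lower of 58. The shares of all rows that met the rule upward and downward were 7.78% and 14.0% with all libraries, 9.61% and 11.9% without M0 replicate 3, and 11.2% and 7.81% with the scaling. Il1b differed by 8.03 on the log2 scale, or 9.49 without M0 replicate 3, and Il18 by 2.21, or 2.24 without it. The guanylate-binding genes Gbp2 and Gbp5 differed by 6.77 and 6.55, or 7.50 and 7.05 without M0 replicate 3. P2rx7 was at -0.92, short of the threshold, at -1.10 without M0 replicate 3, where it met the rule downward, and at -0.52 with overlapping groups under median-of-ratios scaling. This description and the test of PBM share the 3 M1 libraries, so an M1 value that is low or high enters both.

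The order of levels changed between M0 and M1. In M0 the highest means were those of Gsdmd, Naip2 and Casp1 and the lowest those of Aim2, Nlrc4 and Casp4, and most neighbours overlapped, with Gsdmd apart from Naip2 and Casp1 apart from Pycard. Without M0 replicate 3 the lowest were Nlrc4, Nlrp3 and Casp4. In M1 the order was Gsdmd, Casp1, Naip2, Nlrp3, Casp4, Naip5, Aim2, Pycard, Nlrc4 and Nlrp1b, and only Naip2 and Nlrp3 overlapped. In M1 + PBM the libraries of Nlrp3 overlapped those of Naip2 and of Casp4, and the libraries of Pycard overlapped those of Naip5 and of Aim2. Nlrp1b was 6th of 10 in M0, or 4th without M0 replicate 3, and last in both M1 groups. Casp4 was last in M0, with or without that library, and 5th in both M1 groups.

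The balance of adaptor and protease was also read within each library, where a scaling common to both genes cancels. The ratio of Pycard to Casp1 FPKM was 0.991, 0.714 and 0.846 in M0, 0.154, 0.163 and 0.134 in M1, and 0.225, 0.178 and 0.275 in M1 + PBM. No group overlapped another, with M1 lowest and M0 highest. Casp1 changed little with PBM (-0.08), so the gap between M1 and M1 + PBM largely restates that of Pycard. How often other pairs of genes separate in this way was not computed. The ratio of Casp4 to Casp1 was 0.485, 0.444 and 0.417 in M1 and 0.427, 0.448 and 0.359 in M1 + PBM, which overlapped. The ratio of Nlrp3 to Pycard was 0.426, 0.374 and 1.59 in M0, 3.97, 3.73 and 3.84 in M1, and 1.67, 3.57 and 0.928 in M1 + PBM. Irradiated replicate 2 lay just under the M1 libraries, and the other irradiated libraries lay on either side of M0 replicate 3. The ratio of Gsdmd to Casp1 stayed between 1.34 and 1.82 in all 9 libraries.

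Among 13915 rows, the genes whose centred log2 levels lay nearest to those of Nlrp3 over the 9 libraries were Nfkbie, an inhibitor of NF-κB, Gm14010 and Atp10a, with root-mean-square differences of 0.25, 0.31 and 0.32. Nfkbie was at 6.87, 4.76 and 22.1 FPKM in M0, 23.1, 34.5 and 31.7 in M1, and 22.5, 35.0 and 20.5 in M1 + PBM. Like Nlrp3 it was highest in replicate 3 of M0 and in replicate 2 of M1 + PBM. Among the rows nearest to Casp4 were Cflar, an inhibitor of caspase-8, and Gm8995, with differences of 0.08 and 0.11. Cflar was at 9.59, 8.97 and 17.1 FPKM in M0, 66.9, 71.5 and 71.9 in M1, and 60.2, 72.4 and 48.2 in M1 + PBM. These rows were picked for their likeness over the same 9 libraries, so a shared pattern is not separate evidence. The likenesses describe the 9 libraries, which share 3 conditions.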

How the data were processed

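RNA-seq libraries of M0, M1 and M1 + PBM macrophages (3 each) were grouped by their labels. The authors deposited FPKM values in 2 tables of 55655 rows, 1 for M0 and 1 for the other 6 libraries. The submitters' processing notes name Bowtie 0.12.2 and mm9, the paper names Cufflinks methods for expression values, and the counting and scaling of fragments are not given in the sources used here. Of the rows, 320 carry assembler names (MSTRG). Symbols came from GENCODE release M21 for 55154 rows, and no coordinates of measured genes were taken from it. Members, pathway lists and marker lists were chosen with earlier results of these data known.

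Values were analysed as log2(FPKM + 1) with limma 3.58.1 in R 4.3.3 (eBayes with trend) on rows reaching an FPKM of 1 in 3 or more of 6 libraries, with Benjamini-Hochberg adjustment over all rows and two-sided exact permutation tests for single genes. The thresholds were those the paper states for differential expression, 0.05 for the unadjusted p and 1 for the size of the log2 fold change. The fit was first tested on simulated data. M0 entered no test. Low values fell on regular steps more often (25.9% to 27.3% within 0.05 of a whole fragment) than evenly spread values would (10%), which gave the depth estimate, but too few were whole to recover reads.

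The text names all members, pathway genes that passed the unadjusted p without overlap between the groups, a set list of others, and the 3 rows nearest to Nlrp3 and to Casp4, of which 1 is not reported here. Of the marker lists, the 8 neutrophil genes summed to 1.44 to 2.44 FPKM in M0, 8.94 to 28.1 in M1 and 6.44 to 15.0 in M1 + PBM. Most of each sum was S100a8, at 16.7, 6.90 and 27.2 FPKM in M1, and Camp was also higher in M1 than in M0. Ly6g and S100a9 were at 0 in all 9 libraries, and Mpo, Elane, Ltf and Ngp were at 0.1385 FPKM or less. The 5 M1 polarization markers summed to 498 to 933 FPKM in M1 and 444 to 484 in M1 + PBM. Nos2 and Cd86 were lower in M1 + PBM without overlap, where 2.52% of all rows were. The Nos2 means were 229 and 80.9 FPKM, and Nos2 was also among the genes the study picked from these libraries. Il12b, Cxcl9 and Cxcl10 overlapped, and the Cxcl9 mean was higher with PBM, at 16.9 FPKM against 15.5. Deviations from group means were compared between M1 and M1 + PBM libraries. With equal numbers r was 0.157, 0.469 and 0.462 (replicates 1 to 3). With unequal numbers it lay between -0.491 and 0.0328. For this reason a fit with a replicate block was added. The p-values, SEs and intervals come from the fit without the block, unless another fit is named. With the block the unadjusted p (limma) was lower for Il1a (8.93e-05), Il1b (0.0008), P2rx7 (0.0086), Nod2 (0.0266) and Ly96 (0.0298). It was higher for Ifngr1 (0.0028), Rela (0.018), Tnfaip3 (0.0358) and Pycard (0.0272). Promoter windows were read from RefSeq sequences of GRCm38.p6. Other alternatives were a pseudocount of 0.1, no FPKM minimum, median-of-ratios scaling, eBayes without trend and leaving out each library.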

Additional observations from a re-analysis of the deposited data

How the results depend on the processing

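The count of members past the unadjusted p (1, limma) was 1 with a pseudocount of 0.1, no FPKM minimum, median-of-ratios scaling, the replicate block and no trend, and ranged from 0 to 3 when a library was left out. The count past the fold as well was 0 in every one of these fits. The count of pathway genes (8) was 13 with the replicate block, and ranged from 4 to 12 when a library was left out. Among the single genes reported, the block changed no call but that of Nlrp1a. The members apart and past the fold between M1 and M0 (5) numbered 5 to 6 when a library was left out. Of these fits, the share of all rows is given only for that without M0 replicate 3. The cause of these shifts was not tested. Under median-of-ratios scaling the log2 fold change with PBM turned negative for Aim2 (-0.0480), Gsdmd (-0.0499), Nek7 (-0.0142) and Txnip (-0.0658), none past the threshold. Leaving out a library also turned the sign of fold changes that had not passed, with ranges of -0.0449 to 0.0632 for Aim2, -0.0202 to 0.213 for Naip5, -0.152 to 0.0107 for Casp1, -0.0484 to 0.135 for Gsdmd, -0.341 to 0.0763 for Mefv, -0.0246 to 0.169 for Nek7, -0.409 to 0.279 for Txnip, -0.175 to 0.0690 for Gbp2, -0.269 to 0.0848 for Casp8, -0.377 to 0.129 for Irf1 and -0.119 to 0.397 for Irf8. Of the other values for single genes, 284 of M1 + PBM against M1 kept their direction and side of the threshold, 7 newly passed and 21 no longer passed. Of those of M1 against M0, which had no test, 81 stayed within the spread between replicates and 9 did not, and 3 of the 81 crossed the fold threshold of 1, Aim2 with a pseudocount of 0.1 (1.03) or without M0 replicate 1 (1.02) and Naip2 without M0 replicate 2 (1.06). Read counts were not used here, 3 libraries a group limit the precision, and the step from M0 to M1, described across separately deposited tables, was not tested.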
